A study of Rattus norvegicus with 8 samples.

Results

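The 5 circRNAs described here come from the host genes Rictor, Prex2, Psd3, Ralgapa1 and Evi5, which encode a subunit of the kinase complex mTORC2 and 4 regulators of small GTPases. They were taken by probe (ASCRPR013359, ASCRPR013245, ASCRPR011957, ASCRPR000957 and ASCRPR008935 in that order) from 58 named circRNAs in the study's list of the most changed circRNAs, out of 14145 circRNA probes on the array. The paper presents that list as the most increased and most decreased circRNAs. Its members were thus chosen by their fold change between morphine tolerant and saline rats on these same arrays, at least in part. Those of Ralgapa1 and Evi5 were also selected on small p-value, high abundance and low variation within groups, as PCR candidates of the paper. Whether that selection placed them in the list is not stated. The differences of the 5 circRNAs between these groups are therefore given below as a description. Where calls of the fit across all circRNAs are counted for them, the choice had fixed the outcome, and no support is drawn from the counts. The array was hybridised with RNA from the lumbar enlargement of the spinal cord of adult male Sprague-Dawley rats. The morphine tolerance (MT) group was 4 rats that received 10 μg of morphine in each of 2 injections a day over 7 days, and the normal saline (NS) group was 4 rats given the same volume of saline on the same schedule. The labels and the methods text name an intraperitoneal route, while the heading of the methods and the paper's results name an intrathecal one. Tissue was collected on day 8, 1 h after an injection, so tolerance and the effect of the last dose cannot be told apart. Each rat had an array of its own, called MT1 to MT4 and NS1 to NS4.

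A circRNA is a closed loop made when the end of an exon is spliced back to the start of the same or an earlier exon, and it lacks the free ends that exonucleases attack. Rictor is the subunit that defines mTORC2, which phosphorylates Akt and other kinases and acts on the actin cytoskeleton. Small GTPases switch between a GDP-bound and a GTP-bound state. Guanine nucleotide exchange factors turn them on and GTPase activating proteins turn them off, and in neurons these switches steer spine shape, axon growth and the traffic of receptors to and from the membrane. The probes were made for the loops, and linear RNA had been digested before labelling.

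A primer pair that faces away from each other on the linear transcript gives a product only where the ends of an exon are joined into a loop, which is how a circRNA is told from its linear mRNA by PCR. Primers were listed for 2 of the 5 circRNAs and are shown because they are the sequences given for these loops, and whether they face away from each other could not be checked without the transcript sequence. They are printed 5′ to 3′ and read from the study's primer list. The forward and reverse primers have 60% G and C bases for Evi5, and 50% and 55% for Ralgapa1. The PCR measurements made with them were not analysed here. In those measurements the paper reports no change for the circRNA of Evi5 and a significant decrease in MT for that of Ralgapa1.
rno_circRNA_004800 (Evi5), forward: actcctggctaagctggagg
rno_circRNA_004800 (Evi5), reverse: ggctggccatctgactgact
rno_circRNA_014599 (Ralgapa1), forward: acctcagaaacctcagtcagca
rno_circRNA_014599 (Ralgapa1), reverse: agcatagcaggaccaccact

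The arrays differed in brightness before normalization. The median signal over all circRNA probes was 11.1, 12.7, 38.9 and 29.0 on MT1 to MT4, and it lay between 46.2 and 82.4 on the NS arrays. NS3 had a higher level on its negative control spots than the other arrays, with a median of 8.34 against 1.30 to 2.99. The position code in the file headers starts with the same digit for all MT arrays and with another digit for all NS arrays, so array position and group cannot be told apart. Of 82 probes that were neither circRNA probes nor controls, 39 could be named, and 0 of the 5 hosts, 0 of 27 genes fixed for the mTOR and small GTPase pathways and 0 of 16 markers of spinal cord cell types were among them. The labelled tissue could therefore not be checked against its markers, and the linear host RNAs were not measured. In whole tissue, fewer cells of a type cannot be told apart from less RNA per cell.

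The circRNA of Rictor, rno_circRNA_009458 (probe ASCRPR013359), was higher in the MT group. Its signal before normalization was 300.4, 401, 179 and 263 on MT1 to MT4, and 274, 18.5, 43.3 and 131 on NS1 to NS4. The groups overlapped on this scale, because NS1 was brighter than MT3 and MT4. After quantile normalization, which gives all arrays the same distribution of levels, the log2 level was 9.23, 9.83, 7.28 and 8.27 in the MT group (8.65 ± 1.12, mean ± SD, n = 4) and 7.02, 3.32, 5.02 and 6.36 in the NS group (5.43 ± 1.63, n = 4). Every MT array was now above every NS array, with a gap of 0.26 between MT3 and NS1. The log2 fold change was 3.22 with a standard error of 0.82, which is 9.32-fold. It was 1.91 (3.75-fold) before normalization and 2.54 in the deposited log2 values. The probe's place among the circRNA probes of its array averaged percentile 87.8 in the MT group and 54.9 in the NS group, a difference of 32.9 percentile points. NS2 was the lowest array at percentile 25.5 and NS1 the highest NS array at 76.5, so the NS rats covered more of the scale than the MT rats, which lay between 79.4 and 93.5. Leaving out single arrays moved the log2 fold change between 2.52, without NS2, and 3.75, without NS1.

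**Figure D1:**
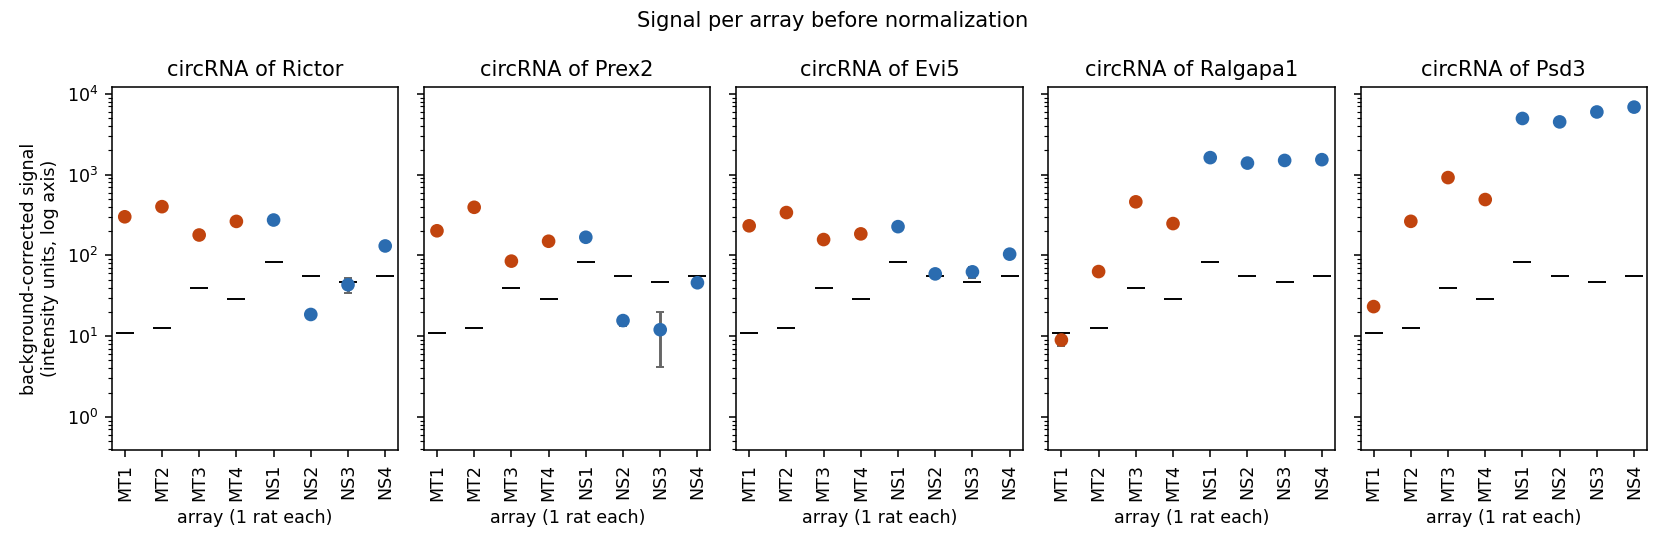
Background-corrected signal of the 5 circRNAs on each array before normalization (intensity units, log axis). Points are single arrays (MT in orange, NS in blue), bars are the error estimate of the image software, and black dashes mark the median signal of all circRNA probes on that array. The circRNAs of Ralgapa1 and Psd3 are separate between groups, and those of Rictor, Prex2 and Evi5 overlap because NS1 is high.

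Prex2 encodes an exchange factor for Rac, a GTPase that drives actin assembly. Its circRNA, rno_circRNA_012504 (probe ASCRPR013245), had a signal of 202, 394, 84.8 and 149.6 on MT1 to MT4 and of 168, 15.6, 12.0 and 45.8 on NS1 to NS4. NS1 was again high, and on NS3 the spot was not well above background, with an error estimate of 65.7% of its signal. It was well above background on the other 7 arrays. Normalized log2 levels were 8.72, 9.80, 6.24 and 7.46 in the MT group (8.05 ± 1.54, n = 4) and 6.25, 3.07, 3.59 and 4.83 in the NS group (4.43 ± 1.42, n = 4). The groups touched, since NS1 was above MT3 by 0.003, and MT was above NS in 15 of the 16 pairs of arrays. The log2 fold change was 3.62 (standard error 0.87, 12.3-fold), the sixth largest increase among the 11382 circRNAs kept by the filter. The log2 difference was smaller on other scales, at 2.36 before normalization, 2.41 in the deposited log2 values and 1.87 with normexp background correction and an offset of 50. In the ranking within arrays, the MT rats lay between percentiles 67.2 and 93.4 and the NS rats between 22.3 and 66.9. Leaving out single arrays moved the log2 fold change between 3.04, without MT2, and 4.23, without MT3 or NS1.

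Psd3 encodes an exchange factor for Arf6, a GTPase of the plasma membrane and of recycling endosomes. Its circRNA, rno_circRNA_005882 (probe ASCRPR011957), was lower in every MT rat. The signal was 23.2, 264, 919 and 491 on MT1 to MT4, against 4956, 4497, 5965 and 6852 on NS1 to NS4. The brightest MT array was below the dimmest NS array, and the 4 NS arrays were close to each other. Normalized log2 levels were 5.99, 9.38, 9.56 and 9.09 in the MT group (8.51 ± 1.69, n = 4) and 12.13, 11.69, 12.18 and 12.50 in the NS group (12.13 ± 0.33, n = 4). The gap between the groups was 2.13. MT1 stood apart below the other MT arrays, which differed among themselves by less than the distance of any of them from the NS group. The log2 fold change was -3.62 (standard error 0.72, 12.3-fold lower), and it was -4.58 before normalization and -3.40 in the deposited log2 values. It was the ninth largest decrease among the circRNAs kept. Without MT1 the log2 fold change was -2.78, and leaving out any other single array left it between -3.97 and -3.49. MT1 also set much of the difference in place within the array, which was -13.2 percentile points with all arrays and -6.21 without MT1.

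Ralgapa1 encodes the catalytic subunit of a GTPase activating protein for RalA and RalB, GTPases of vesicle exocytosis. Its circRNA, rno_circRNA_014599 (probe ASCRPR000957), had a signal of 8.95, 63.0, 460.2 and 248 on MT1 to MT4 and of 1623, 1389, 1498 and 1532 on NS1 to NS4. The NS rats were nearly alike, whereas the MT rats spread widely and were all lower. On MT1 the probe was below the median of its array, although still marked as well above background. Normalized log2 levels were 4.77, 7.43, 8.63 and 8.20 (7.26 ± 1.73, n = 4) in the MT group and 10.08, 10.10, 10.19 and 10.18 (10.14 ± 0.056, n = 4) in the NS group. MT3 was the MT array nearest to the NS group, 1.45 below its lowest array. The log2 fold change was -2.88 (standard error 0.73, 7.36-fold lower), -4.07 before normalization and -2.52 in the deposited log2 values. It was number 98 among the decreases. Leaving out MT1 gave -2.05, and leaving out MT3 gave -3.34. The difference in place within the array was -18.9 percentile points with all arrays and -9.01 without MT1.

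Evi5 encodes a protein with a TBC domain, the domain of GTPase activating proteins for Rab GTPases, and it binds Rab11 on recycling endosomes. Its circRNA, rno_circRNA_004800 (probe ASCRPR008935), had a signal of 232, 339, 157 and 185 on MT1 to MT4 and of 227, 59.0, 62.5 and 104 on NS1 to NS4. As for Rictor, NS1 was above MT3 and MT4 before normalization. The normalized log2 level was 8.91, 9.63, 7.10 and 7.76 in the MT group (8.35 ± 1.14, n = 4) and 6.72, 5.21, 5.49 and 6.02 in the NS group (5.86 ± 0.66, n = 4). All MT arrays were then above all NS arrays, and MT3 and NS1 were 0.38 apart. The log2 fold change was 2.49 (standard error 0.57, 5.62-fold), number 65 among the increases. It was 2.14 in the deposited log2 values and 1.18 (2.27-fold) before normalization, the smallest difference of the 5 circRNAs on that scale. Leaving out single arrays gave 2.06, without MT2, to 2.91, without MT3.

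**Figure D2:**
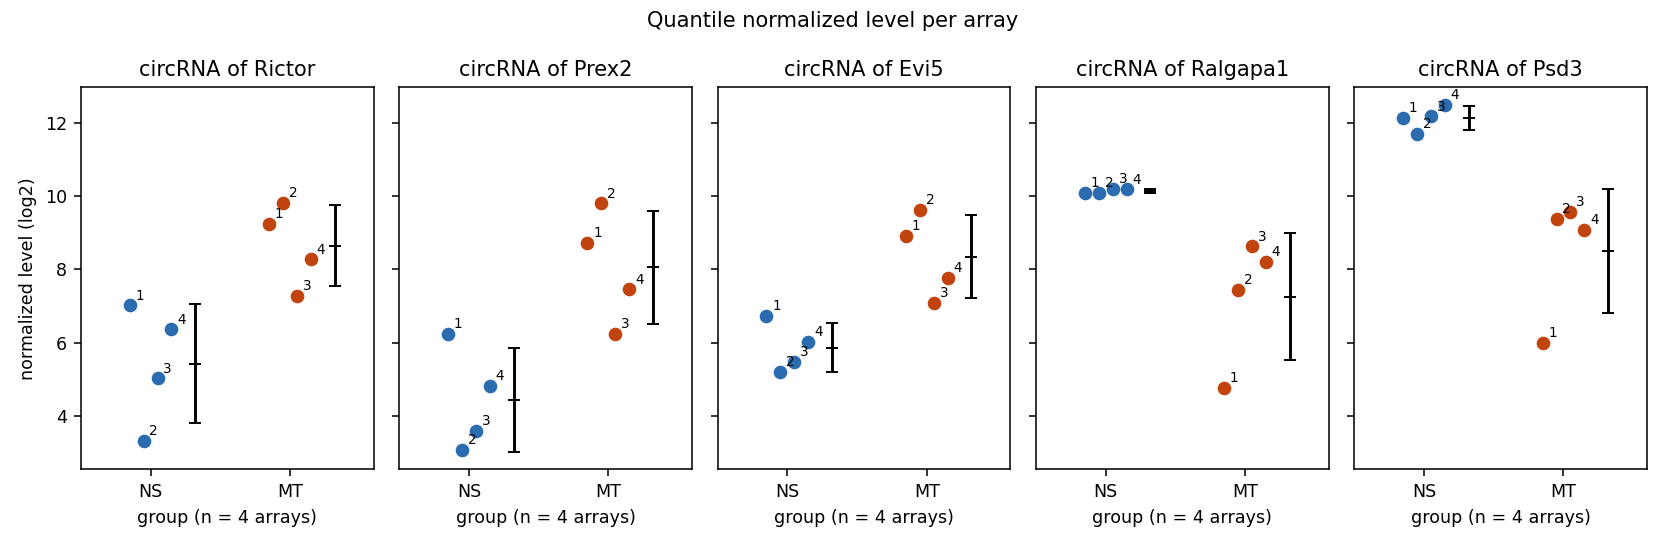
Quantile normalized log2 level of the 5 circRNAs by group. Numbered points are arrays 1 to 4 of each group, and the bar beside them is the mean with 1 SD (n = 4). The NS arrays of Ralgapa1 and Psd3 lie between 10.08 and 10.19 and between 11.69 and 12.50, and in the 3 circRNAs that are higher in MT the lowest MT array is MT3 and the highest NS array is NS1.

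The whole comparison was large. With limma, and thresholds of 0.05 for the adjusted p and 2 for the fold change, 3201 of the 11382 circRNAs kept (28.1%) were differentially expressed (DEcircRNAs), with 1808 (15.9%) up-regulated and 1393 (12.2%) down-regulated in MT. The balance of directions depended on the processing, since more were down-regulated than up-regulated without normalization (5069 and 8), in the deposited log2 values (1121 and 889), with normexp (657 and 479), from spot brightness (910 and 725), with the methods' t-test after adjustment (76 and 30), without MT1 (1406 and 1213) and without MT1 and MT2 (1013 and 524). All 5 circRNAs were DEcircRNAs, with 3 up-regulated and 2 down-regulated, which the way they were chosen had fixed. The 5 calls were lost when MT2, MT4 or any NS array was left out. In those fits at most 5 DEcircRNAs were called in all (4543 to 5464 at an unadjusted p under 0.05). The 5 calls were kept without MT1, beside 2619 DEcircRNAs among the 11382, and without MT3, beside 5181. The methods' t-test called all 5 beside 32.1% of circRNAs at an unadjusted p, and 0 of them beside 0.931% after adjustment. Every MT array was above every NS array in 22.1% of the circRNAs after normalization and in 0.413% before it, and below in 22.4% after and 51.2% before. Thus the order of groups in Psd3 and Ralgapa1 before normalization was also that of 51.2% of circRNAs. On that scale the circRNAs of Rictor, Prex2 and Evi5 were higher in MT in 14 of 16 pairs of arrays. How many of all circRNAs reach that count was not computed. These 3 were chosen as increased in MT, so no support is drawn from it.

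The 5 circRNAs did not move by the same amount in each MT rat. Relative to the mean of the NS arrays on the normalized log2 scale, the circRNA of Rictor was higher by 3.80, 4.40, 1.85 and 2.84 on MT1 to MT4. For Prex2 these differences were 4.29, 5.37, 1.81 and 3.02, and for Evi5 they were 3.05, 3.77, 1.24 and 1.90. MT2 was the farthest from the NS mean and MT3 the nearest in all of these. The circRNA of Psd3 differed from its NS mean by -6.13, -2.74, -2.56 and -3.04 on MT1 to MT4, and that of Ralgapa1 by -5.37, -2.71, -1.51 and -1.94. Here MT1 was the farthest, and MT3 was again the nearest. As folds, Psd3 was lower by 70.1-fold on MT1 and 5.91-fold on MT3, and Prex2 was higher by 41.3-fold on MT2 and 3.50-fold on MT3. The largest folds were computed in part from dim spots, and the part of these spots in their size was not tested. The signal of Psd3 was 23.2 on MT1. That of Prex2 was 15.6 on NS2 and 12.0 on NS3, where it was not well above background. Over all up-regulated DEcircRNAs the median difference was 2.11, 1.77, 0.69 and 1.21 on MT1 to MT4, and over all down-regulated ones -2.66, -1.96, -0.92 and -1.32. The arrays with the lowest median signal, MT1 and MT2, were thus also those farthest from the NS group across the array, and the part of brightness in these values was not tested. Without MT1 and MT2 the log2 fold changes were 2.34 for Rictor, 2.42 for Prex2, 1.57 for Evi5, -1.72 for Ralgapa1 and -2.80 for Psd3. In that fit, chosen after seeing the data, the circRNAs of Ralgapa1, Psd3 and Evi5 were called and those of Rictor and Prex2 were not, beside 13.5% of all circRNAs.

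**Figure D3:**
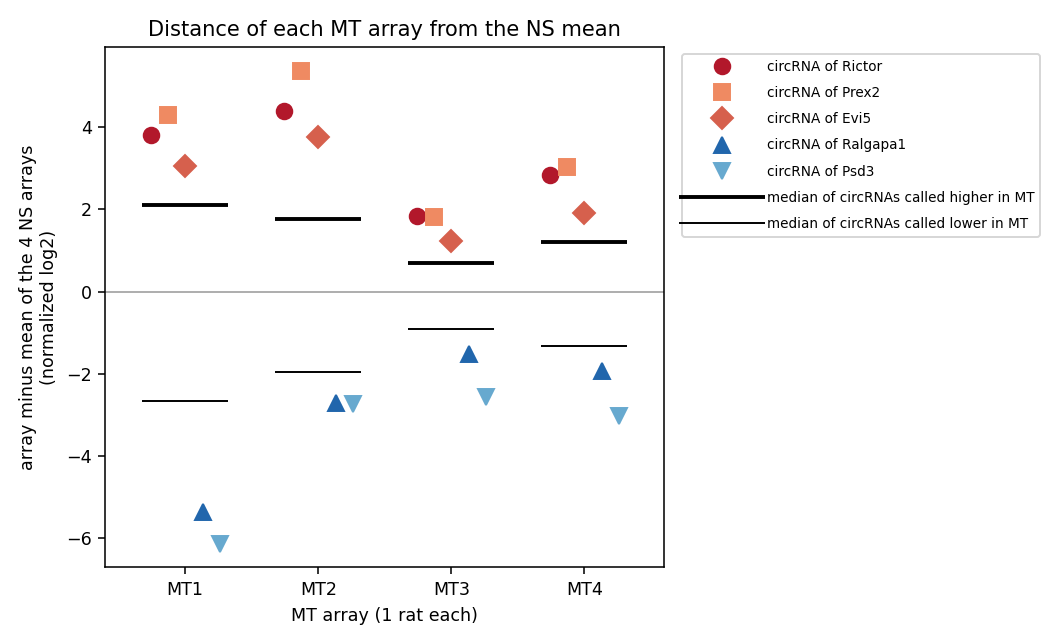
Distance of each MT array from the mean of the 4 NS arrays on the normalized log2 scale for the 5 circRNAs. Thick and thin dashes are the medians of all circRNAs called higher and lower in MT. All 5 circRNAs lie farther from 0 than these medians on every MT array. They were chosen from a list of the most changed circRNAs on these arrays, so no support is drawn from this. The 5 circRNAs and both medians are nearest to 0 on MT3.

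Among the arrays of the same group, the NS rats differed more in the circRNAs of Rictor, Prex2 and Evi5 (SD 1.63, 1.42 and 0.66) than in a typical circRNA, whose median SD was 0.27 in the NS group. The spread of Prex2 includes dim spots on NS2 and NS3, and that of Rictor a dim spot on NS2. In the deposited log2 values the NS SDs were smaller, at 0.97 for Rictor, 0.71 for Prex2 and 0.57 for Evi5. The NS SD of Ralgapa1, 0.056, was below the median of 0.27, and that of Psd3, 0.33, was close to it. The paper picked the circRNAs of Ralgapa1 and Evi5 for PCR partly for low variation within groups. Their spread is therefore not independent of that choice. In the MT group the SDs of all 5 circRNAs, from 1.12 for Rictor to 1.73 for Ralgapa1, were above the median of 0.68. Each of the 5 circRNAs had a single spot per array. For 82 other probes printed at 10 to 20 spots on each array, the SD of the log2 signal within an array had a median of 0.22 at signals under 20, 0.10 from 20 to 200, 0.081 from 200 to 2000 and 0.050 above 2000. These values are the error between spots of the same array alone and hold no difference between rats.

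The order of the arrays was the same for the circRNAs of Rictor and Evi5, from MT2, MT1, MT4 and MT3 down to NS1, NS4, NS3 and NS2. Prex2 differed from this order only in that NS1 came just above MT3. Pearson's r between these 3 circRNAs ran from 0.956 to 0.991 over the 8 arrays, and from 0.871 to 0.974 after the mean of each group was subtracted. For Psd3 and Ralgapa1 it was 0.978, and 0.945 after subtraction. Between a circRNA that was higher in MT and another that was lower, r ran from -0.84 to -0.72, and from -0.51 to -0.08 once the group means were removed. These values describe 8 shared arrays in 2 groups and depend on the same brightness and normalization. Such likeness was not limited to these circRNAs. Among the 11382 circRNAs kept, r was over 0.9 with 292 others for Rictor, 479 for Prex2 and 897 for Evi5. It was over 0.9 with 1479 others for Psd3 and 2073 for Ralgapa1. After the mean of each group was subtracted, the counts were 145, 199, 263, 1196 and 1611 in the same order.

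Among the named circRNAs, the pattern most like that of Rictor was rno_circRNA_001507 of Scaf8, followed by mmu_circRNA_28075 of Ubac2 (r = 0.999 for each over 8 arrays). For Prex2 these were rno_circRNA_004155 of Kdm5b and rno_circRNA_002750 of Tlk2 (r = 0.999 for each). The Scaf8 and Kdm5b circRNAs were also the nearest among all circRNAs kept. For Evi5 the nearest named circRNAs were rno_circRNA_002748 of Tlk2 (0.995) and rno_circRNA_007341 of Csnk1g3 (0.994), and for Ralgapa1 they were rno_circRNA_005151 of Whsc1, now called Nsd2 (0.998), and rno_circRNA_016592 of Vps13c (0.994). Across all circRNAs kept, probes without a name in that list were nearest to Evi5 (ASCRPR009252, 0.997) and to Ralgapa1 (ASCRPR005484, 0.999). The circRNA nearest to that of Psd3, among the named and among all, was another loop of the same host, rno_circRNA_005883 (0.999), and the next named was rno_circRNA_001879 of RGD1310862, now called Crebrf (0.993).

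The related list was 5 further named circRNAs, from the hosts Psd3, Ralgapa1 and Tbc1d5, and since the study ranked that list on these arrays, their direction is not independent evidence. All 5 were lower on every MT array than on every NS array, as were 22.4% of all circRNAs after normalization. In the limma fit 3 of them were down-regulated DEcircRNAs, 2 were not called and 0 were up-regulated, beside 12.2% of all circRNAs called lower. Their median log2 fold change was -3.39, where that of all circRNAs kept was 0.05, and it was -2.09 without MT1 and -1.54 without MT1 and MT2.

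The other circRNA of Psd3, rno_circRNA_005883, had normalized log2 levels of 5.89, 9.26, 9.25 and 8.69 on MT1 to MT4 and 11.86, 11.33, 11.80 and 12.22 on NS1 to NS4. Its log2 fold change of -3.53 (standard error 0.70) was close to that of the first Psd3 loop, and MT1 was again the lowest array. The other circRNA of Ralgapa1, rno_circRNA_014598, had levels of 2.97, 8.69, 9.28 and 8.75 in MT and 10.98, 10.62, 10.77 and 10.90 in NS. It was not well above background on MT1, and its log2 fold change of -3.39 (standard error 1.22) did not pass the threshold. The size of this fold change depended on MT1, where the signal was 2.37 with an error of 52.7%. Without that array it was -1.91 (standard error 0.24), and MT2, MT3 and MT4 were each below every NS array. The pair from Ralgapa1 had an r of 0.971 over the 8 arrays, and 0.974 with group means subtracted. Whether probes of the same host share sequence could not be read from the files, which hold no probe sequences.

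Tbc1d5, a TBC-domain regulator of Rab7 in endosome traffic, was the host of 3 circRNAs. For rno_circRNA_016943 the levels were 4.68, 8.35, 10.70 and 9.92 in MT and 12.42, 11.34, 11.76 and 11.87 in NS. For rno_circRNA_016945 they were 5.53, 8.57, 10.97 and 10.30 in MT and 12.36, 11.75, 11.97 and 12.08 in NS. For rno_circRNA_016940 they were 6.36, 9.24, 12.22 and 11.48 in MT and 12.71, 12.72, 12.74 and 12.97 in NS. All of them were lowest on MT1 and next lowest on MT2, with MT3 nearest to the NS group. The log2 fold changes were -3.43, -3.20 and -2.96 (standard errors 1.11, 1.01 and 1.08), and rno_circRNA_016940 was not called. Without MT1 they were -2.19, -2.09 and -1.80 in the same order, and without MT1 and MT2 they were -1.40 for rno_circRNA_016945 and -0.93 for rno_circRNA_016940. The MT rats differed more in the 5 circRNAs of this list (median SD 2.64) than in a typical circRNA, and the NS rats did not (median SD 0.26).

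Another regulator of Rab GTPases among the named hosts differed in the opposite direction. Its circRNA, rno_circRNA_005773, is listed under the old name RGD1561609 of Tbc1d4, a GTPase activating protein that acts below Akt in vesicle traffic, and it was added after its values were known. The signal was 4461, 418, 942 and 1999.96 on MT1 to MT4 and 462, 679, 508 and 376 on NS1 to NS4. MT2 was below NS1, NS2 and NS3 on this scale. Normalized log2 levels were 12.31, 9.86, 9.60 and 11.03 in the MT group (10.70 ± 1.24, n = 4) and 7.85, 8.97, 8.50 and 7.94 in the NS group (8.32 ± 0.53, n = 4), with every MT array above every NS array. On the log2 scale the fold change was 2.38 (standard error 0.58, 5.22-fold), and it was 1.47 before normalization and 1.85 without MT1. Here MT1 was the farthest from the NS group, in contrast to Rictor, Prex2 and Evi5, which were highest on MT2.

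**Figure D4:**
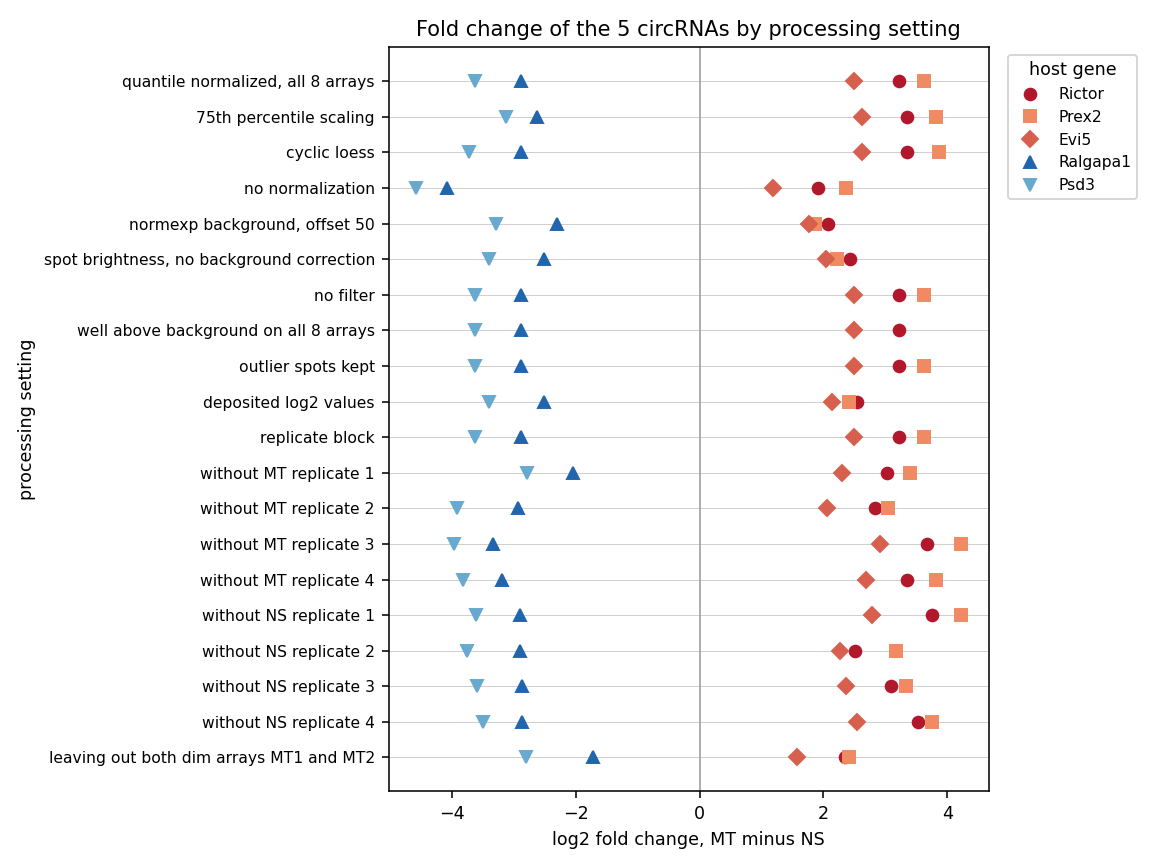
Log2 fold change (MT minus NS) of the 5 circRNAs under each processing setting, with the reported setting on top. Each symbol is the estimate for a host gene from the fit to all circRNAs. Rictor, Prex2 and Evi5 stay above 0 and Ralgapa1 and Psd3 below 0 in every setting run, and the lowest estimate above 0 is that of Evi5 without normalization, 1.18.

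The direction of all 5 circRNAs was kept in every setting run. Across the fits that used all arrays, the log2 fold change ran from 1.91 to 3.36 for Rictor, 1.87 to 3.86 for Prex2 and 1.18 to 2.63 for Evi5. It ran from -4.07 to -2.30 for Ralgapa1 and from -4.58 to -3.13 for Psd3. From spot brightness before normalization, the log2 difference was as low as 1.38 for Rictor, 1.19 for Prex2 and 0.93 for Evi5. For Ralgapa1 and Psd3 it stayed within the ranges of the fits. Without normalization the increases were smaller and the decreases larger, and the median of all circRNAs was then -1.40. Measured against that median, the circRNAs of Rictor, Prex2 and Evi5 remained above it and those of Psd3 and Ralgapa1 below it. Since all of them were chosen from this contrast on these arrays, no support is drawn from their direction or their side of the median.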

How the data were processed

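CircRNAs were measured in the spinal cord of 8 separate rats (4 MT, 4 NS), 1 single-colour array each. Before labelling with Cy3, the authors removed linear RNA with RNase R, and they extracted spot intensities with Agilent Feature Extraction 11.0.1.1 (per the file headers). The deposited intensities used here were the background-corrected signal, its error estimate, and the spot and local background brightness. The deposited marks (0 or 1, another kind of value) give spots well above background, saturated or outlying. The authors also deposited normalized log2 values for 11382 circRNAs. Quantile normalization, limma and a filter for presence (4 of 8 arrays or more) are named in the methods, and the signal column is not.

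Log2 background-corrected signals of the 15165 spots that were not controls were quantile normalized (R 4.3.3, limma 3.58.1). Outlier spots were left out (2 values), and circRNAs were kept if well above background on 4 or more of the 8 arrays. MT and NS were compared with limma's linear model and empirical Bayes, with Benjamini-Hochberg adjustment over the 11382 circRNAs kept and no covariate. The script was tested on simulated data. Other values were computed in Python 3.11.15 with pandas 2.3.3 and numpy 2.4.6. The number of arrays limits the precision.

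Probe names came from the study's list of most changed circRNAs, matched to probes by the raw group means there. The fold changes and p-values of that list were not used. The members, the 5 related circRNAs and the pathway and marker lists were chosen with earlier results of these data known. The circRNAs named are the members, the related list, and for each member the 2 listed circRNAs and the 1 circRNA kept with the highest Pearson's r. A circRNA of Tbc1d4 was added after its values were seen. Alternatives changed the normalization, background correction, filter, outlier spots, test, replicate block, source of the values and the arrays included. Same-numbered MT and NS rats are different animals, and their deviations from the group means had r between -0.21 and 0.14 in 4 pairs, so the numbers were not taken to pair the arrays. PCR, GO and KEGG terms, miRNA predictions and genome positions were not analysed here, and 1 further circRNA of the study's list is not reported here.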

Additional observations from a re-analysis of the deposited data

Results flagged for a closer look

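In 5 of 54 groups of 4 arrays examined, 1 array stood farther from its nearest neighbour than Dixon's criterion allows, measured as the gap divided by the range of the group. Chance gives about 1 in 20 such groups, and values of the same arrays are not independent. The circRNA of Psd3, rno_circRNA_005882, had a ratio of 0.867 on the normalized log2 scale and 0.936 in the place within the array, with MT1 low in both. The other Psd3 circRNA, rno_circRNA_005883, had a ratio of 0.831, and rno_circRNA_014598 of Ralgapa1 had 0.906, again with MT1 low. For rno_circRNA_016940 of Tbc1d5 the ratio was 0.884 in the NS group, where NS4 was at 12.97 and the others were between 12.71 and 12.74.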

How the results depend on the processing

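Direction was kept for the 5 circRNAs, for the 5 related circRNAs and for that of Tbc1d4 in all settings run. All of them come from a list drawn from the same contrast on these arrays, so this is a description. The 3201 DEcircRNAs became 5077 without normalization (8 up-regulated and 5069 down-regulated), 1136 with normexp, 1635 from spot brightness, 1825 with presence required on all 8 arrays, 2010 from the deposited log2 values, 106 with the methods' test after adjustment and 1537 without MT1 and MT2. Leaving out single arrays gave 0 to 5181. The number of the 5 circRNAs called was 3 without normalization (Prex2, Ralgapa1 and Psd3), 3 without MT1 and MT2, 0 with the methods' test after adjustment, and 0 to 5 without single arrays. At an unadjusted p of at most 0.05 the fits without single arrays passed 4543 to 6793 of the 11382 circRNAs, so the 5 circRNAs, which passed it in each, are 5 among many. The log2 fold change of Prex2 was 1.87 with normexp and that of Evi5 was 1.18 without normalization. Without MT1 and MT2, the median of the related circRNAs was -1.54, and rno_circRNA_016945 had -1.40 and rno_circRNA_016940 had -0.93. Why these values moved was not tested.

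With the array number as a replicate block, 0 DEcircRNAs and 0 of the 5 circRNAs were called (smallest adjusted p in limma 0.063), where an unadjusted p of 0.05 passed 5294 of 11382 circRNAs. The numbers do not pair the rats, and the fold changes were the same in this fit.

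Prex2 could not be tested with presence required on all 8 arrays, because its spot on NS3 was not well above background. Normexp was run on median pixel brightness, since means were not in the columns. Each circRNA rests on 1 spot per array, and the dimmest spots have the largest error.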
